A study of Schizosaccharomyces pombe with 6 samples.

Results

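The genes described here encode Seb1 and other transcription termination factors, with related helicases, of the fission yeast Schizosaccharomyces pombe. The 7 genes, seb1, pcf11, rhn1, dhp1, din1, sen1 and dbl8, were found by their common names in the authors' deposited table, and all 7 were among the 6986 features counted. Polyadenylated RNA was sequenced from 3 libraries of the seb1-G476S mutant (STF19) and 3 libraries of the wild type. The submitters call the libraries of a group biological replicates, and those of the wild type, sequenced in the same run, had been deposited earlier. Mutant cells were h+ and carried seb1-G476S together with rpb1-CTD-WT29 linked to KanMX. Wild-type cells were h+ and carried rpb1-CTD-WT29 linked to NatMX. Both groups were thus of mating type h+, had the rpb1-CTD-WT29 allele of the largest polymerase subunit gene, and were grown vegetatively in log phase at 30 °C in YES, a rich medium. Each group has a single lab strain number, so the replicates share a strain, and the drug marker or any other difference between these strains cannot be told apart from the seb1 allele.

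RNA polymerase II transcribes past the poly(A) site of a gene, and the transcript is cleaved and polyadenylated behind it. In the torpedo model, a nuclear 5′ to 3′ exonuclease then enters at the freshly cut end, degrades the RNA that is still being made, and helps to release the polymerase. Proteins with a CTD-interaction domain bind the phosphorylated carboxy-terminal domain (CTD) of the polymerase and couple cleavage to release. Termination matters in fission yeast also for genes that lie downstream of a long non-coding RNA, whose transcription can interfere with theirs, and the mutant came from a screen for suppressors of such interference.

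The allele seb1-G476S replaces a glycine of Seb1 by serine, per the label. The codon is shown because it is the site of the mutation. The reference genome (RefSeq, assembly ASM294v3) places seb1 on the plus strand of chromosome I, with a coding sequence of 620 codons before the stop in 2 coding exons, and the mutated codon lies in coding exon 2. The reference sequence from codon 472 to codon 480, with the mutated codon, the fifth shown, in capitals, reads as follows.
seb1 codons 472 to 480: cgtactaaatggGGTgtaggatttgga
The capitals GGT encode glycine, the residue that the label names as replaced. Counts do not show the bases of a transcript, so the mutation itself could not be checked in these libraries.

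The libraries held 23705340 to 27910803 counts in the mutant and 21013941 to 24496579 counts in the wild type. Correlations of log2 CPM (counts divided by the TMM-scaled library size, in the usual CPM unit) were 0.996 to 0.998 between mutant libraries and 0.991 to 0.996 between wild-type libraries, and 0.964 to 0.974 between groups. The largest polymerase subunit gene, rpb1, whose locus carries the marker, was at 151 ± 6.62 CPM in the mutant and 152 ± 12.8 CPM in the wild type (SD, n = 3 each; adjusted p = 0.971 in edgeR's quasi-likelihood test). Of 10 genes that mark meiosis and sporulation, states outside vegetative growth, 9 were tested, 2 of them higher (isp3 and mei3) and 2 lower (meu14 and mcp7), at an adjusted p under 0.05. With so few genes, these counts are near the 55% called among all tested features. The calls of meu14 and mcp7 were lost with DESeq2 as run here, that of meu14 also without mutant replicate 3 and that of mcp7 also without any 1 of 4 libraries. In the authors' deposited DESeq2 comparison, meu14 passed as lower at -0.94 (adjusted p = 0.0157) and mcp7 did not pass (adjusted p = 0.063). The summed level of the 10 was 163 to 164 CPM in the mutant and 136 to 138 CPM in the wild type. Within that sum, isp3 alone was at 56.2 ± 2.54 CPM in the mutant and 24.7 ± 2.37 CPM in the wild type (SD, n = 3 each). The median log2 fold change of the 9 tested was -0.20, so the higher sum was not a rise of the list as a whole. None of the 10 was at 0 in all libraries, and their part in the results was not tested.

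It was asked how the mRNAs of the termination factors stood in cells with an altered Seb1. Of the 7 genes, seb1 and pcf11 rose in the mutant, din1 and dbl8 fell, and rhn1, dhp1 and sen1 did not pass the test. The rise of seb1 was nearly 3-fold, whereas the other changes were by less than 1.5-fold. All 7 genes were tested. The call of a change is an adjusted p under 0.05 in edgeR's quasi-likelihood test, Benjamini-Hochberg adjusted over 6046 features, and a positive log2 fold change means a higher level in the mutant. Among all tested features, 55% were called, 26.7% as higher and 28.4% as lower. Against that background, 4 calls among 7 genes are close to the share that features at large gave. The median log2 fold change was 0.027 over the 7 genes and -0.0078 over all tested features.

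**Figure D1:**
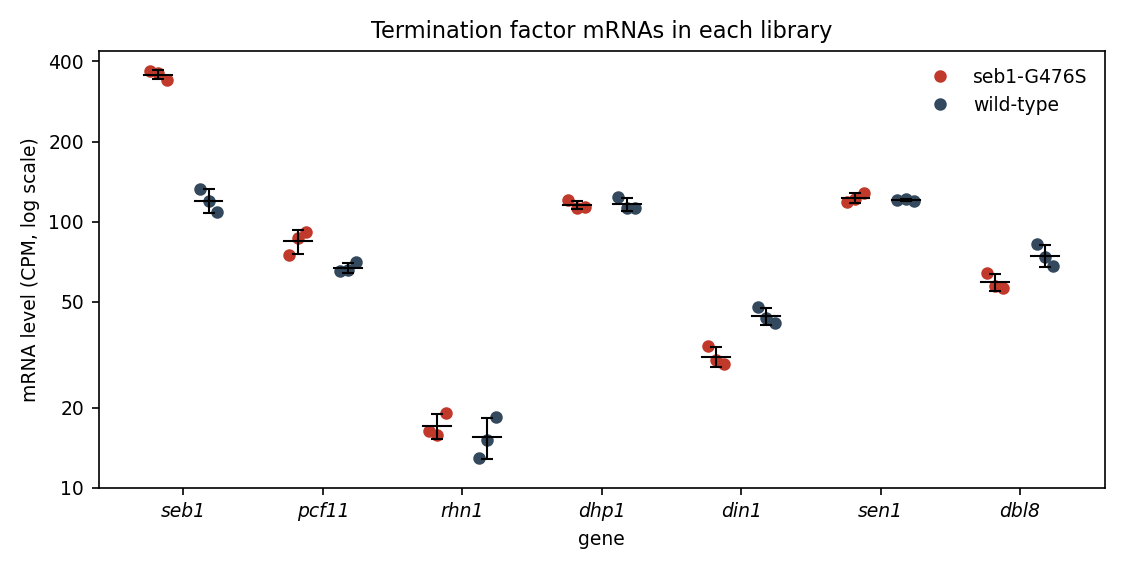
mRNA level of the 7 termination factor genes in CPM on a log axis, with the 3 seb1-G476S libraries left of the 3 wild-type libraries for each gene. Points are libraries, horizontal lines are group means and bars are SD. The groups are apart for seb1, pcf11, din1 and dbl8 and overlap for rhn1, dhp1 and sen1.

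Seb1 is an essential RNA-binding protein with a CTD-interaction domain and an RNA-recognition motif. It binds nascent transcripts near their 3′ ends and promotes poly(A) site selection and termination. Its gene, seb1 (SPAC222.09), was at 368, 361 and 341 CPM in mutant replicates 1, 2 and 3, against 133, 119 and 108 CPM in wild-type replicates 1, 2 and 3. The lowest mutant library was thus far above the highest wild-type library. The level of seb1 was 2.97 times the wild-type level, with a 95% interval of 2.64 to 3.35 (log2 fold change 1.57, SE 0.0769, adjusted p = 7.33e-07). Among 4953 tested protein-coding genes, 44 had a larger rise. Of all tested features, 2.94% had a larger change in either direction. In such bulk samples, fewer cells of a kind and less RNA per cell cannot be told apart.

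Pcf11 is the CTD-interaction domain protein of cleavage factor I and acts in both cleavage and termination. Its gene, pcf11 (SPAC4G9.04c, chromosome I), was at 74.7, 87.2 and 91.5 CPM in mutant replicates 1, 2 and 3, and at 65.1, 65.6 and 70.5 CPM in wild-type replicates 1, 2 and 3. The groups were apart, though mutant replicate 1 came close to wild-type replicate 3. The level in the mutant was 1.26 times that in the wild type, with a 95% interval of 1.11 to 1.43 (log2 fold change 0.33, SE 0.0818, adjusted p = 0.00711). Of the protein-coding genes, 15.1% had a larger rise. With library totals alone as scaling, the log2 fold change of pcf11 was 0.22 and its call was lost (adjusted p = 0.0957).

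Rhn1 is the homologue of Rtt103 of budding yeast, a CTD-interaction domain protein that accompanies the exonuclease. Its gene, rhn1 (SPBC337.03, chromosome II), had the lowest level of the 7 in CPM. Counts were 379, 424 and 445 in mutant replicates 1, 2 and 3, and 303, 389 and 414 in wild-type replicates 1, 2 and 3. In CPM this was 16.4, 15.7 and 19.2 in the mutant and 13.0, 15.1 and 18.4 in the wild type, so the groups overlapped. The coefficient of variation between libraries was 10.7% in the mutant and 17.6% in the wild type, where counting error alone would give 4.9% and 5.21% in these groups. The log2 fold change was 0.14 (SE 0.15, adjusted p = 0.449), and the 95% interval of the fold was 0.872 to 1.39. A change of the size seen for pcf11 lies within that interval.

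Dhp1 is the fission yeast 5′ to 3′ nuclear exonuclease of the torpedo model, and Din1 is its pyrophosphohydrolase partner. The gene of the exonuclease, dhp1 (SPAC26A3.12c, chromosome I), was at 121, 113 and 113 CPM in mutant replicates 1, 2 and 3, and at 124, 113 and 113 CPM in wild-type replicates 1, 2 and 3. The groups overlapped, and the log2 fold change was -0.012 (SE 0.0623, adjusted p = 0.881), with a 95% interval of the fold of 0.90 to 1.09. With library totals alone as scaling, dhp1 passed as lower, at -0.13 (adjusted p = 0.0406).

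The partner gene din1 (SPAC19D5.06c, chromosome I) was at 34.1, 30.3 and 29.1 CPM in mutant replicates 1, 2 and 3, against 47.8, 43.3 and 41.5 CPM in wild-type replicates 1, 2 and 3. All mutant libraries lay below all wild-type libraries. It fell to 0.704 times the wild-type level, with a 95% interval of 0.607 to 0.817 (log2 fold change -0.51, SE 0.0958, adjusted p = 0.0019). Of the protein-coding genes, 18.2% had a larger fall.

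Sen1 and Dbl8 are helicases of the Senataxin family, which unwind RNA and DNA-RNA hybrids. In fission yeast Sen1 is known for its part in termination by RNA polymerase III. Its gene, sen1 (SPAC6G9.10c, chromosome I), was at 118, 121 and 128 CPM in mutant replicates 1, 2 and 3, and at 120, 121 and 120 CPM in wild-type replicates 1, 2 and 3. The groups overlapped, and the wild-type libraries lay close together. The log2 fold change was 0.027 (SE 0.0554, adjusted p = 0.697), with a 95% interval of the fold of 0.935 to 1.11.

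The other Senataxin gene, dbl8 (SPBC29A10.10c, chromosome II), was at 64.3, 57.5 and 56.3 CPM in mutant replicates 1, 2 and 3, against 82.3, 73.4 and 68.0 CPM in wild-type replicates 1, 2 and 3. All mutant libraries lay below all wild-type libraries, by a small margin between mutant replicate 1 and wild-type replicate 3. It fell to 0.796 times the wild-type level, with a 95% interval of 0.697 to 0.91 (log2 fold change -0.33, SE 0.0862, adjusted p = 0.00971). Of the protein-coding genes, 28.3% had a larger fall.

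**Figure D2:**
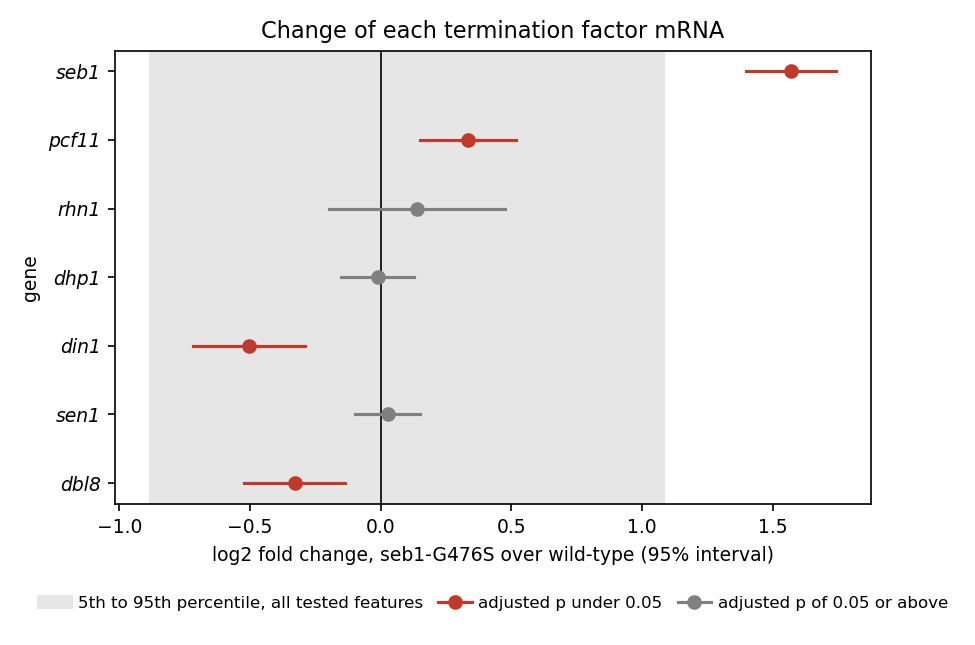
Log2 fold change of each termination factor mRNA, seb1-G476S over wild-type, with its 95% interval. The shaded band spans the 5th to 95th percentile of all tested features, from -0.88 to 1.09. The interval of seb1 lies above the band, and the other 6 lie within it.

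Groups were apart for 4 of the 7 genes, 2 higher and 2 lower. Of all tested features, 63.9% had groups that did not overlap, 31.3% with the mutant higher and 32.6% with the mutant lower. Wild-type replicate 3 had the lowest correlations with the other libraries of its group, and without it the log2 fold changes were 1.5 for seb1, 0.37 for pcf11, -0.55 for din1 and -0.39 for dbl8, all still called. With library totals alone as scaling, the calls among the 7 genes were 1 higher and 3 lower, and that scaling moved the median of all tested features by -0.12. Relative to the median, pcf11 was at 0.34 and dhp1 at -0.0040 under library totals, against 0.34 and -0.0045 with TMM scaling. In the authors' deposited table, whose fit appears to have held further libraries, the log2 fold change was 1.61 for seb1, with a standard error of 0.149. The authors' deposited table gave 0.37 for pcf11, -0.47 for din1 and -0.29 for dbl8. It gave 0.18 for rhn1, 0.024 for dhp1 and 0.065 for sen1.

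Levels were compared between the genes as CPM per kb of annotated gene length. In the mutant, seb1 stood at 152 ± 6.02 CPM per kb, and the next 4 genes lay close together, with din1 at 24.4 ± 2.04, pcf11 at 24.1 ± 2.49, dhp1 at 23.8 ± 0.911 and sen1 at 21.8 ± 0.927 CPM per kb. The libraries of din1 and pcf11 overlapped in this order, as did those of pcf11 and dhp1. The lowest levels per kb in the mutant were those of rhn1, at 12.7 ± 1.36, and dbl8, at 9.87 ± 0.718 (SD, n = 3). In the wild type, seb1 stood at 51.3 ± 5.23 CPM per kb, followed by din1 at 34.7 ± 2.52, dhp1 at 24.0 ± 1.37, sen1 at 21.4 ± 0.157 and pcf11 at 19.1 ± 0.858 CPM per kb. Each of these was apart from the next over the 3 wild-type libraries. The lowest wild-type levels per kb, of dbl8 at 12.4 ± 1.20 and rhn1 at 11.6 ± 2.04, overlapped. The level of seb1 per kb was above that of 84.7% of tested protein-coding genes in the mutant and of 67.5% in the wild type. That of din1 was above 47.3% in the mutant and 56.1% in the wild type. The annotated length of pcf11 is 3510 bases, of which 1917 code for protein. Per kb of coding length, pcf11 ranked 2nd in the mutant and 4th in the wild type, while seb1 ranked 1st in both groups. The mutant's din1 then ranked 4th, at 29.4 CPM per kb of coding length, below dhp1 at 38.8. In the wild type, pcf11 at 35.0 then stood above sen1 at 23.8, and rhn1 at 13.3 above dbl8 at 12.8. The order of these genes thus depends on the length used in both groups.

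Summed per kb, the 7 mRNAs came to 274, 269 and 264 CPM per kb in mutant replicates 1, 2 and 3, and to 183, 172 and 168 CPM per kb in wild-type replicates 1, 2 and 3. Without seb1 the sums were 117, 115 and 119 CPM per kb in the mutant and 126, 121 and 122 CPM per kb in the wild type. The larger sum in the mutant was therefore that of seb1. Per kb of annotated gene length, the other 6 genes together were slightly lower in each mutant library than in any wild-type library. In CPM not divided by length, the sums of these 6 genes overlapped between the groups. The share of seb1 in the sum was 56.6% ± 1.30 in the mutant and 29.4% ± 1.77 in the wild type (SD, n = 3 each). The share of din1 was 9.08% ± 0.595 in the mutant and 19.9% ± 0.565 in the wild type. Since seb1 is part of the sum, shares were lower in the mutant also for genes that were not called, at 8.85% ± 0.211 in the mutant and 13.8% ± 0.225 in the wild type for dhp1, and at 8.10% ± 0.49 in the mutant and 12.3% ± 0.519 in the wild type for sen1.

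**Figure D3:**
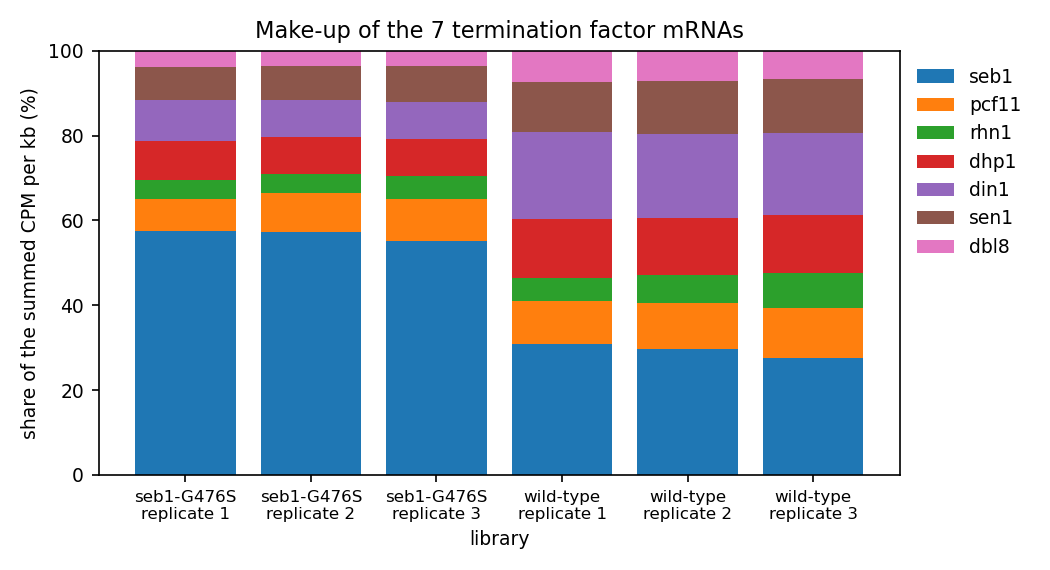
Share of each gene in the summed CPM per kb of the 7 termination factor genes, in percent, for each seb1-G476S and wild-type library. The seb1 share is 55.1 to 57.4% in the mutant libraries and 27.5 to 31.0% in the wild-type libraries.

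Ratios per kb were set between genes whose proteins work together or are related. The exact permutation test of 3 against 3 libraries is two-sided and cannot give a p below 0.1, so none of the 4 ratios could pass. The ratio of din1 to dhp1, the exonuclease partner over the exonuclease, was 1.08, 1.02 and 0.979 in mutant replicates 1, 2 and 3, against 1.46, 1.46 and 1.41 in wild-type replicates 1, 2 and 3. The groups did not overlap, and the log2 difference of -0.49 was larger than the SD within either group, of 0.0682 in the mutant and 0.0342 in the wild type (exact permutation p = 0.1, adjusted over the 4 ratios 0.133). By coding length the ratio averaged 0.756 in the mutant and 1.06 in the wild type. Which of these genes was higher in the mutant thus depends on the length used. The log2 difference cannot depend on it, as a length changes the ratio of every library alike.

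The ratio of dbl8 to sen1 averaged 0.454 ± 0.0502 in the mutant and 0.579 ± 0.0551 in the wild type (SD, n = 3 each, exact permutation p = 0.1, adjusted 0.133). That of seb1 to pcf11 averaged 6.39 ± 0.918 in the mutant and 2.69 ± 0.379 in the wild type (SD, n = 3 each, exact permutation p = 0.1, adjusted 0.133). In both ratios the groups did not overlap. The ratio of rhn1 to pcf11 averaged 0.531 ± 0.0525 in the mutant and 0.602 ± 0.0803 in the wild type (SD, n = 3 each, exact permutation p = 0.3, adjusted 0.3), and its groups overlapped. By coding length it averaged 0.334 in the mutant and 0.38 in the wild type, and the ratio of seb1 to pcf11 averaged 4.39 in the mutant and 1.85 in the wild type.

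The other genes of cleavage and polyadenylation place the termination factors in their pathway. Of 17 genes on this list, all tested, 3 were higher and 6 lower in the mutant, and the median log2 fold change was -0.11. These counts are close to the background of 55% called, 26.7% as higher and 28.4% as lower. The largest rise was that of msi2, which encodes a subunit of the mRNA cleavage factor complex, at 141 ± 1.32 CPM in the mutant and 40.6 ± 6.21 CPM in the wild type (log2 fold change 1.79). The phosphatase gene dis2 rose by 0.30, or by 0.18 with library totals alone, still called. The other riser, clp1, at 0.70, is described in the authors' deposited table as a Cdc14-related phosphatase, which acts in cell division and not in cleavage. Without clp1 the list had 2 higher and 6 lower among 16.

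Genes of the cleavage and polyadenylation complex that fell included ssu72, a CTD phosphatase, at a log2 fold change of -1.04, with 4.88 ± 0.684 CPM in the mutant and 10.1 ± 1.97 CPM in the wild type. The genes cft2, a subunit related to the endonuclease, and rna14, a scaffold of cleavage factor I, were both at -0.51 to -0.52. The poly(A) polymerase gene pla1 was at -0.45, pta1 at -0.30 and yth1 at -0.28. The call of cft2 was lost without mutant replicate 1 (adjusted p = 0.0533). That of yth1 was lost without any 1 mutant library or wild-type replicate 2 (adjusted p 0.0565 to 0.131). The endonuclease gene ysh1 was at -0.18 and did not pass (adjusted p = 0.101). With library totals alone as scaling, the list had 3 higher and 10 lower.

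The CTD that Seb1, Pcf11 and Rhn1 bind is modified by kinases and phosphatases, and inositol pyrophosphates act on termination in fission yeast. Of 14 genes of these groups, all tested, 3 were higher and 6 lower, and the list's median was -0.14 on the log2 scale. With so few genes, these counts too are near the background of 55% called. The largest fall was that of cdk9, the P-TEFb kinase gene, at 27.3 ± 3.14 CPM in the mutant and 44.5 ± 10.6 CPM in the wild type (log2 fold change -0.71). The elongation factor gene spt5 fell by 0.60, the CTD phosphatase gene fcp1 by 0.52 and the Lsk1 cyclin gene lsc1 by 0.50 on the log2 scale. The level of cdk9 was 36.1, 40.9 and 56.4 CPM in wild-type replicates 1, 2 and 3. Leaving out a library, cdk9 was at -0.84 to -0.50 and spt5 at -0.65 to -0.53, both still called. The fall of cdk9 was thus not the largest in every such fit. Without wild-type replicate 3, fcp1 was at -0.33 and still called. In the authors' deposited DESeq2 comparison fcp1 was at -0.47 and did not pass (adjusted p = 0.0561). The TFIIH genes pmh1 and mcs2 were at -0.53 and -0.48. The call of pmh1 was lost without mutant replicates 2 or 3 or wild-type replicate 2 (adjusted p 0.0528 to 0.0813).

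The risers of that list, named after their values were seen, were spt4 at a log2 fold change of 0.46, asp1 at 0.27 and mcs6 at 0.20. Spt4 and Spt5 form a complex, and their genes were called in opposite directions. The call of asp1, which encodes an inositol pyrophosphate synthase, was lost without any 1 library other than wild-type replicate 3 (adjusted p 0.078 to 0.167). With library totals alone as scaling, the calls of asp1 and mcs6 were lost as well, and the list had 1 higher and 7 lower.

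**Figure D4:**
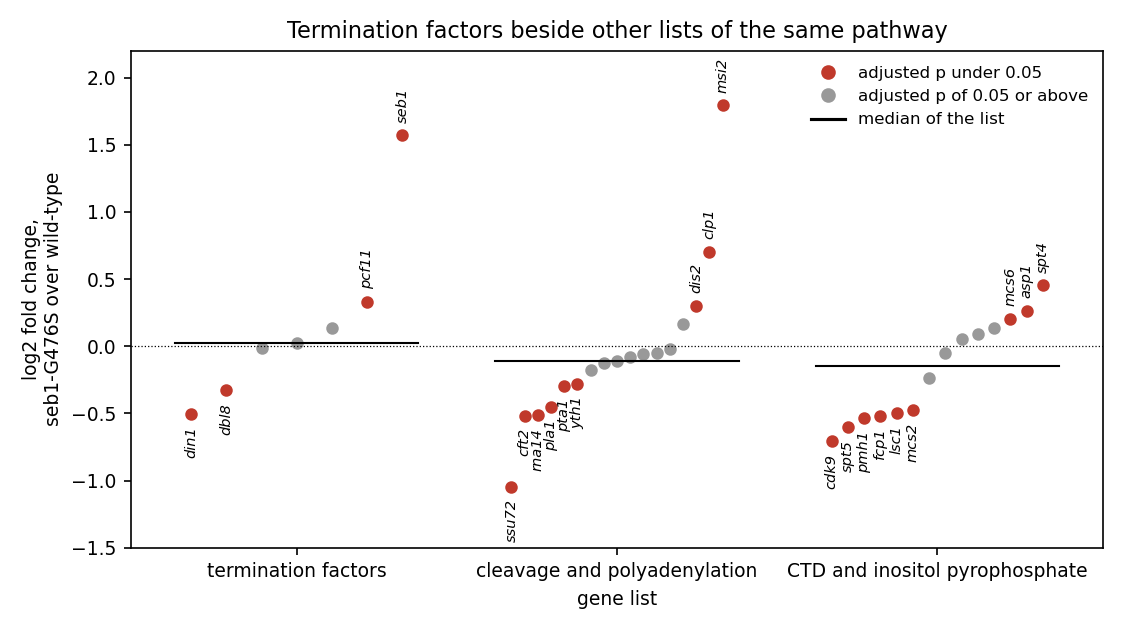
Log2 fold change, seb1-G476S over wild-type, of the 7 termination factor genes, 17 genes listed for cleavage and polyadenylation and 14 genes listed for the CTD and inositol pyrophosphates. Points are genes, named where the adjusted p is under 0.05, and lines are list medians of 0.027, -0.11 and -0.14. The risers seb1 and msi2 stand above all other points.

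The genes around the 7 were read as well, since a termination factor acts at the ends of genes. For each gene the nearest counted feature on each side and any counted feature overlapping it were taken, 20 in all, of which 19 were tested. In the mutant 2 were higher and 7 lower. Of the 7 downstream neighbours, 5 were called lower and 0 higher. The median of the 7 was -0.48 on the log2 scale, where 28.4% of all tested features were called lower and 26.7% higher. Among the 5, the calls of alp11 (at pcf11) and tri1 (at dbl8) were lost in 3 and 5 of 6 fits leaving out a library. Those of ppk27, ctf8-antisense-1 and ubp6 held in all 6 such fits, with ubp6 at -0.58 to -0.33. Without wild-type replicate 3, alp11 was at -0.28, so the size of the median depends on single libraries. The downstream neighbours of seb1, pcf11, din1 and sen1 lie on the strand opposite to the gene. Those of rhn1, dhp1 and dbl8 lie on the same strand. Of the 6 upstream neighbours tested, 2 were higher and 1 lower.

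Downstream of seb1, byr4, a GTPase-activating gene of septation on the opposite strand, was at 30.9 ± 1.16 CPM in the mutant and 35.9 ± 1.37 CPM in the wild type and did not pass (log2 fold change -0.22, adjusted p = 0.0536). It passed with DESeq2 (adjusted p = 0.0494) and with library totals alone (adjusted p = 0.016). Upstream of seb1, on the opposite strand, lies snu2, the U2 small nuclear RNA, which was at 1.69 ± 0.274 CPM in the mutant and 1.32 ± 0.38 CPM in the wild type (adjusted p = 0.24) in this polyadenylated RNA.

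The feature downstream of din1, ctf8-antisense-1 on the opposite strand, had the largest fall of the neighbours, at 2.45 ± 0.262 CPM in the mutant and 9.84 ± 0.698 CPM in the wild type (log2 fold change -2.0, adjusted p = 1.2e-05). Upstream of din1, SPAC14C4.01c fell by 0.41 (adjusted p = 0.018), and the call was lost without mutant replicates 1 or 2. Without wild-type replicate 3, the library with its highest level, it was at -0.25 and still called. Overlapping din1 on the same strand lies SPAC19D5.10c, described in the authors' deposited table as dubious. It was at 0.376 ± 0.147 CPM in the mutant and 0.577 ± 0.24 CPM in the wild type and did not pass (adjusted p = 0.211). On the strand opposite to pcf11 and overlapping it, rnh201, a ribonuclease H2 subunit gene, fell to 7.44 ± 0.915 CPM in the mutant, against 17.7 ± 4.59 CPM in the wild type (log2 fold change -1.25, adjusted p = 0.000696). The adenylate kinase gene adk1, which also overlaps pcf11 on the opposite strand, was at 664 ± 26.7 CPM in the mutant and 608 ± 54.1 CPM in the wild type (adjusted p = 0.148). It passed as higher without wild-type replicate 1 (adjusted p = 0.0108). The strand option of the authors' counting is not given in the sources used here, and reads from such overlaps may be counted for the other gene. For din1 and SPAC19D5.10c, on the same strand, this holds whichever option was used.

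Downstream of rhn1, the kinase gene ppk27 fell by a log2 fold change of 0.72 (adjusted p = 0.00184). The antisense feature named for rhn1 itself, rhn1-antisense-1, was at 0.726 ± 0.282 CPM in the mutant and 0.896 ± 0.303 CPM in the wild type, and its groups overlapped (adjusted p = 0.445). Around sen1, the downstream ubiquitin hydrolase gene ubp6 was at -0.48 (adjusted p = 0.00949) and the upstream synaptobrevin gene syb1 at 0.40 (adjusted p = 0.00272), on the log2 scale. Around dbl8, the downstream gene tri1 was at -0.48 and the upstream gene vps902 at 0.16, and the calls of both were lost without any 1 of 5 libraries (adjusted p 0.0876 to 0.125 for tri1 and 0.0777 to 0.164 for vps902). The call of tri1 was also lost with DESeq2 (adjusted p = 0.12), and that of vps902 with DESeq2 (adjusted p = 0.0575), without a low-count filter (adjusted p = 0.0564) and with library totals alone, where its log2 fold change was 0.041 (adjusted p = 0.495). The downstream neighbour of pcf11, alp11, was at -0.36, and its call was lost without mutant replicates 1 or 2 or wild-type replicate 2 (adjusted p 0.0508 to 0.0599). Around dhp1, the overlapping genes cnt6 and SPAC26A3.11 and the downstream gene rga2 did not pass (adjusted p 0.92, 0.0595 and 0.763). SPAC26A3.11 passed as lower with library totals alone and without wild-type replicate 3 (adjusted p = 0.00809), and rga2 with library totals alone. Upstream of rhn1, SPBC337.02c was at -0.26 and did not pass (adjusted p = 0.186), but passed without wild-type replicate 1 (adjusted p = 0.0497), and it was at -0.072 without wild-type replicate 3. Upstream of dhp1 lies the retrotransposon Tf2-4, a near-identical copy of others, which was too low to test.

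The tested protein-coding genes whose pattern was most like that of seb1 were found by the root mean square difference over the 6 libraries of log2 CPM minus the wild-type mean. They were SPBC25B2.08, at a difference of 0.071, SPAC9G1.14 at 0.12, bgl2 at 0.14, pet2 at 0.18 and ecl1 at 0.18. The libraries share their group means, so the measure mostly picks genes with a rise like that of seb1. SPBC25B2.08, described in the authors' deposited table as a protein specific to Schizosaccharomyces pombe, was at 37.6 ± 0.735 CPM in the mutant and 12.2 ± 1.05 CPM in the wild type. SPAC9G1.14 is described there as dubious, with 161 to 187 counts a library in the mutant and 50 to 69 in the wild type. The glucan glucosidase gene bgl2 was at 748 ± 12.4 CPM in the mutant and 266 ± 14.9 CPM in the wild type.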

How the data were processed

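The deposited files are raw counts of reads for each feature in 6 libraries, and the authors' own comparison. The submitters' processing notes name the build ASM294v2 and, as tools, DESeq2, HTSeq 0.10.0, HISAT2 2.1.0 and SAMtools. Per the labels' protocols, a stranded mRNA kit and paired-end reads were used. The deposited comparison holds log2 fold changes with standard errors, p-values before and after adjustment, a test statistic (a score) and group averages, a signal of counts divided by size factors. Which libraries the authors' fit held is not stated. Its mean over libraries for dhp1, 2523, lay below both group averages, 2751 in the mutant and 2706 in the wild type. A mean over these 2 groups alone would lie between them, so that fit appears to have held further libraries.

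Of 6987 rows, 1 identifier stood on 2 rows, which were summed. Gene lengths, neighbours and the seb1 codon came from RefSeq ASM294v3, matched by identifier (6833 features directly, 13 by synonym, 140 unmatched). As that assembly differs from the authors' build, no coordinates are given.

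Testing used edgeR 4.0.16 in R 4.3.3, quasi-likelihood, two-sided, with TMM scaling, filterByExpr at a minimum count of 10 and Benjamini-Hochberg adjustment over 6046 features. A standard error is the size of the log2 fold change divided by the root of its F statistic. Log2 CPM used a prior count of 2. Alternatives were DESeq2 size factors, library totals, DESeq2 1.42.0, no filter, a minimum count of 50, the replicate number as a block, and each library left out. The test was checked on simulated data. No libraries agreed within sampling noise (lowest chi-square per degree of freedom 3.87). P-values measure the spread between libraries of 1 strain a group.

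The members and lists were chosen with earlier results of these data known. Genes named were the 7 members, rpb1, counted features next to or overlapping a member, called genes of each other list (beyond the 6 largest after their values were seen), and the 5 genes most like seb1.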

Additional observations from a re-analysis of the deposited data

How the results depend on the processing

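Of 795 alternative values, 717 kept their direction and their side of the threshold, or, for counts, stayed within 1.5 times. The calls of seb1, din1 and dbl8 held under every alternative run, with log2 fold changes of 1.45 to 1.65, -0.62 to -0.45 and -0.45 to -0.25. With library totals alone, pcf11 was at 0.22 and not called, dhp1 at -0.13 and called, and sen1 at -0.091. The termination factors then had 1 higher, the other cleavage and polyadenylation genes 10 lower and the CTD and inositol pyrophosphate genes 1 higher. That scaling also turned chz1, the gene upstream of pcf11, to -0.083, and gave 1148 higher and 2287 lower features, or 33.4% higher, against 1613 and 1715, or 48.5%, with TMM scaling. Values close to 0 changed sign without a call. These were dhp1 (0.00084 with a minimum count of 50, and -0.045 to 0.035 leaving out a library), sen1 (-0.015 to 0.052 leaving out a library), cnt6 (0.0058 with a minimum count of 50, and -0.028 to 0.021 leaving out a library), rga2 (-0.058 to 0.0092 leaving out a library) and rpb1 (0.0094 with a minimum count of 50, and -0.068 to 0.049 leaving out a library). Of the meiosis and sporulation genes, 1 was higher and 0 lower with a minimum count of 50, which tests fewer genes. DESeq2 gave 0 lower, and leaving out a library 0 to 2. Without another library each, called features numbered 1260 to 1708 higher and 1262 to 1835 lower. Replicate numbers were not taken to pair the libraries, as deviations of same-numbered libraries correlated at 0.357, 0.0585 and 0.263. The replicate block gave 1877 higher and 2029 lower features, left the 7 genes' calls at 2 higher and 2 lower, with seb1 at 1.57, pcf11 at 0.33, din1 at -0.51 and dbl8 at -0.33, and libraries numbered 1 and 3, but not 2, correlated best with their own number. The block also called byr4, adk1, SPAC26A3.11 and SPBC337.02c (adjusted p 0.0277, 0.0179, 0.0202 and 0.0377), which did not pass without it, and changed no other named gene's call. The log2 differences of the ratios cannot move with coding length or exonic length, since a length changes the ratio of every library alike. Their values at these lengths are among the 717 counted as kept, and they say nothing on robustness. Exonic length was chosen after seeing the data. Precision was limited for rhn1, with 303 to 445 counts a library.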
